A study of Mus musculus with 16 samples.

Results

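The genes described here are transcription factors that set or keep the identity of gut epithelium. They were chosen by name, as a list of 10 genes, namely Cdx1, Cdx2, Hnf4a, Gata4, Gata6, Sox17, Sox4, Sox9, Klf4 and Klf5, each measured by every probe set whose single gene symbol in the array annotation is that gene. Of the 10 genes, 9 had such a probe set, 14 probe sets in all, out of 8251 genes so represented. All 9 passed the filter on low values, and 7455 genes were tested in all. Sox9 was not analysed here.

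The samples were epithelial cells of mouse ileum, the last segment of the small intestine, collected by laser capture microdissection and hybridised, after 2 rounds of RNA amplification, to Affymetrix MG_U74Av2 arrays. The titles name WT (n = 6), adenoma (a benign epithelial tumour, n = 5) and carcinoma (an invasive one, n = 5). The labels used here do not state the genotype of the tumour groups, the strain, any treatment, age, the number of animals or the way regions were chosen. Nor do they say which arrays share an animal, so p-values measure the spread between captured samples and are too small if several came from 1 animal.

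In the intestine, the homeobox factors Cdx1 and Cdx2, the nuclear receptor Hnf4a and the zinc finger factors Gata4 and Gata6 bind near genes of the absorptive enterocyte and keep them on. Sox4 and Sox9 belong to the HMG-box family and are known from crypt progenitors, and Sox17 is known from the early endoderm and from vascular endothelium. Klf4 and Klf5 are related zinc finger factors with opposed places in the crypt, Klf5 in dividing cells and Klf4 in cells that have left the cycle.

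Markers of epithelium and of other cell types were measured on all arrays. Of 14 epithelial marker genes, 12 to 14 were above the floor on each array, where the floor is a signal of 46.9, the 25th percentile of all values, to which lower values were raised. So were 20 to 25 of 26 genes of smooth muscle, fibroblasts and mesothelium. Counts were 13 to 22 of 24 for endothelium and 11 to 19 of 21 for immune cells. Most values of all probe sets lie above a 25th percentile by definition, so these counts tell little about which cells were captured. They do not show that the captured cells were epithelium alone. WT and tumour arrays also differed in technical controls. The mean log2 signal of 9 spiked control probe sets was 13.7 ± 1.0 over the WT arrays, 12.24 ± 0.82 over adenoma and 12.23 ± 0.50 over carcinoma (SD; exact permutation tests of each tumour against WT, two-sided, both adjusted p = 0.0487 over 3 pairs). The log2 ratio of the 3' to the 5' Gapdh probe set, a measure of RNA integrity and transcript length after amplification, was 4.52 ± 0.39, 5.82 ± 0.24 and 5.70 ± 0.58 (adjusted exact permutation p = 0.00649 for each tumour against WT). The Gapdh ratio ran from 4.09 to 5.02 in WT and from 5.52 to 6.12 in adenoma, without overlap, and from 4.95 to 6.45 in carcinoma. In adenoma against WT, fits adjusted for this ratio thus reach beyond shared values and cannot separate group from ratio. In carcinoma only carcinoma 4 (4.95) lay within the WT range, and the next lowest was carcinoma 3 (5.44). Fits of carcinoma against WT adjusted for the ratio therefore also reach mostly beyond shared values. WT 1, WT 2, WT 4 and WT 5 had a higher spike-in signal than any tumour array and are called the 4 spike-bright arrays. Fits without them keep WT 3 and WT 6 as the only WT arrays and so have less power.

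Of the 9 genes, Sox17 rose in both tumours, Cdx1 fell in adenoma and Gata4 fell in carcinoma. Sox17 was 9.30-fold higher in adenoma and 3.45-fold higher in carcinoma, Cdx1 was 2.94-fold lower in adenoma, and Gata4 was 2.80-fold lower in carcinoma. The other genes did not pass the test in either tumour. So 2 of 9 genes were called in adenoma against WT, where 8.28% of all genes tested were (4.02% higher and 4.25% lower), and 2 of 9 in carcinoma against WT, where 9.05% were (4.16% higher and 4.90% lower), at a limma adjusted p under 0.05. The median log2 fold change of the 9 genes was -0.40 in adenoma and -0.38 in carcinoma, beside medians of -0.14 in both for all genes. Between carcinoma and adenoma 0 of 9 genes passed, against 0.0268% of all genes. In this amplified RNA of captured tissue, fewer cells of a type and less of a transcript per cell cannot be told apart.

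**Figure D1:**
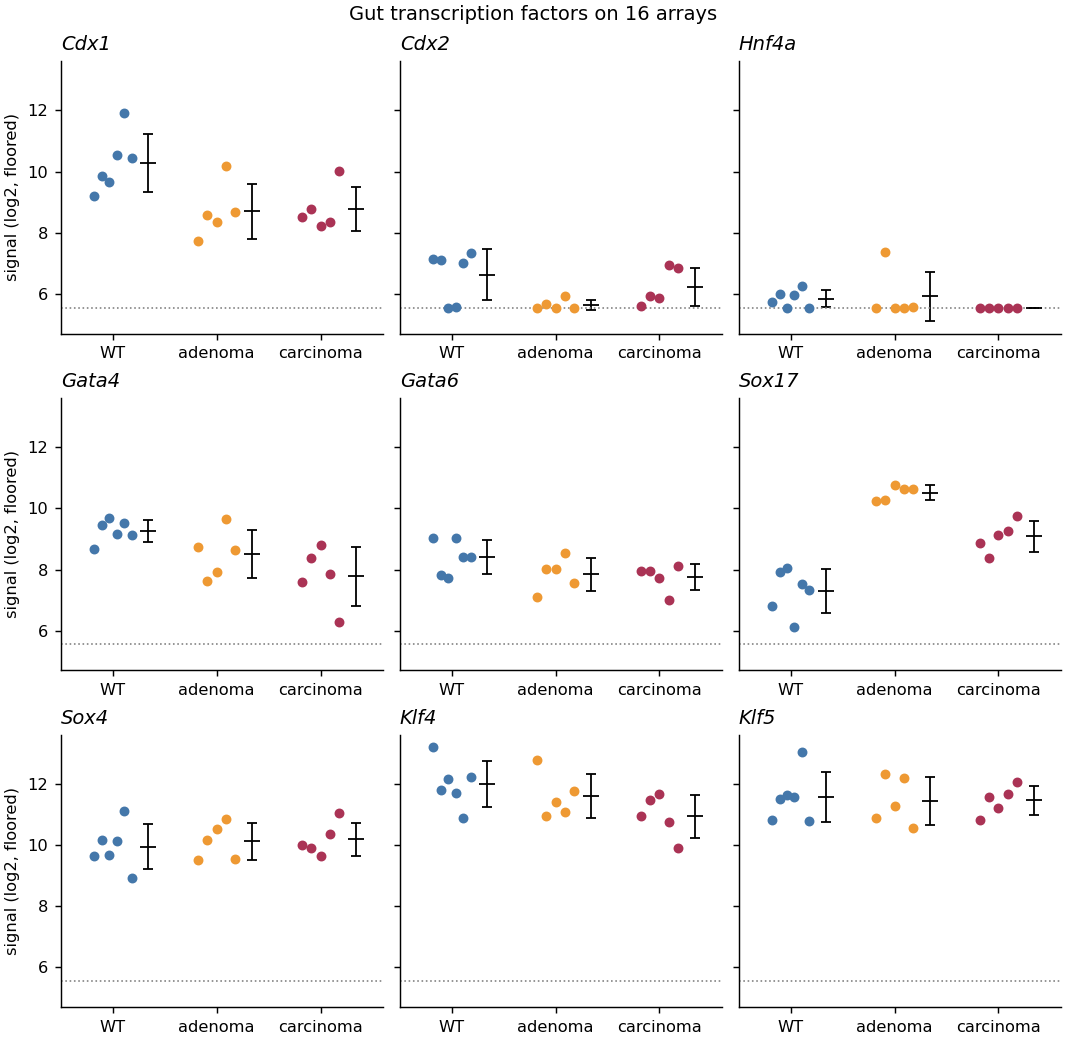
Signal of each gene's brightest probe set on every array (y axis, log2 scale with values raised to the floor, which is the dotted line). Points are arrays, and the bar beside each group is its mean ± SD; adenoma and carcinoma lie above every WT array for Sox17, while the groups overlap for the other 8 genes.

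The order of description follows the genes' roles, starting with the caudal homeobox factors. Cdx1, which acts in the crypt and along the villus as a target of Wnt signals and of Cdx2, gave signals in WT from 584 to 3859.7, with a median of 1155.1. The adenoma signals were 213.7, 383.6, 330.2, 1153.2 and 413.3, and those of carcinoma were 368.1, 444.2, 297.5, 329.4 and 1039.1. In each tumour group 4 of 5 arrays lay below every WT array, and the remaining one, adenoma 4 and carcinoma 5, lay within the WT range, so the groups overlapped.

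The fitted log2 difference of Cdx1 from WT was -1.56 ± 0.48 in adenoma (SE; limma adjusted p = 0.0493) and -1.48 ± 0.48 in carcinoma (adjusted p = 0.0586). The values of the 2 tumours are thus close to each other and on opposite sides of the threshold, and carcinoma differed from adenoma by 0.07 (95% interval -0.97 to 1.11). The adenoma call passed in 10 of 31 other settings and in 4 of 16 fits that left out 1 array (WT 1, WT 3, adenoma 4 or carcinoma 5), and the other 12 gave adjusted p-values up to 0.139 at log2 differences between -1.64 and -1.23. The carcinoma difference passed in 8 of 31 other settings, among them the fit with the replicate number as a block (adjusted p = 0.0300). Cdx1 signal followed the spike-in signal over the 16 arrays (r = 0.72, and 0.46 after group means were removed, as a description). Adjusted for the spike-in signal, the adenoma difference was -0.82 ± 0.57 (adjusted p = 0.476). Without the 4 spike-bright arrays it was -1.35 ± 0.58 (limma adjusted p = 0.324), and adjusted for the Gapdh ratio it was -3.32 ± 0.67 (limma adjusted p = 0.0185). Cdx1 signal had r = -0.32 with the Gapdh ratio over the 16 arrays and 0.66 with group means removed. The Gapdh-adjusted value relies on that within-group slope, since WT and adenoma do not overlap in the ratio.

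Cdx2, the homeobox factor that holds intestinal against gastric identity, was dim on these arrays. WT signals ran from 35.3 to 162.8 with a median of 133.7, and 5 of 6 were above the floor. The adenoma signals were 10.5, 50.7, 18.4, 61.5 and 8.9, of which 2 were above the floor, and the carcinoma signals were 48.3, 61.5, 58.1, 122.8 and 116.1. In adenoma 3 of 5 arrays lay below every WT array, and in carcinoma every array lay within the WT range.

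The log2 differences of Cdx2 were -0.97 ± 0.36 in adenoma (adjusted p = 0.116) and -0.38 ± 0.36 in carcinoma (adjusted p = 0.550), so Cdx2 passed in neither tumour. Raising low values to the floor understates a fall of this gene. With the floor at the 10th percentile the adenoma difference was -1.80 ± 0.49 and passed (adjusted p = 0.0377), and it also passed without WT 3 or WT 4, in 3 of 31 other settings altogether. Carcinoma against adenoma was 0.59 (95% interval -0.21 to 1.39). Cdx2 signal had r = 0.59 with the spike-in signal, and 0.45 with group means removed. Adjusted for it, the differences from WT were -0.46 ± 0.44 in adenoma and 0.13 ± 0.44 in carcinoma, so the carcinoma sign turned, and adjusted for the Gapdh ratio they were -1.05 ± 0.65 and -0.46 ± 0.61.

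Hnf4a, a nuclear receptor that binds many enterocyte promoters, was near the floor throughout. Its WT signals lay between 21.8 and 77.6 (median 58.35), with 4 of 6 above the floor. The adenoma signals were 11.6, 164.7, 38.2, 30.2 and 48.2, and those of carcinoma were 15.4, 22.3, 22.4, 46.5 and 40.6. No carcinoma array was above the floor, and adenoma 2 stood alone above every WT array. The fitted log2 differences, 0.07 ± 0.30 in adenoma and -0.30 ± 0.30 in carcinoma (adjusted p = 0.912 and 0.577), therefore say little, since both groups of the carcinoma comparison lie at or close to the floor. A change of Hnf4a was not measurable with this probe set.

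Gata4, which in the small intestine marks the proximal part and its absorptive genes, had WT signals from 403.8 to 817.8 with a median of 638. In adenoma the signals were 427.3, 197.6, 244.3, 800.4 and 402, and in carcinoma 191.9, 331.3, 446.1, 233 and 78. In adenoma 3 of 5 arrays and in carcinoma 4 of 5 lay below the lowest WT array, so each tumour overlapped WT.

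Gata4 fell in carcinoma by 1.49 ± 0.41 on the log2 scale (adjusted p = 0.0272), while the adenoma difference was -0.75 ± 0.41 (adjusted p = 0.286). Carcinoma and adenoma were not told apart (-0.74, 95% interval -1.63 to 0.16), so a fall in carcinoma alone is not shown. The carcinoma call passed in 21 of 31 other settings. It was lost without WT 2 (-1.45, adjusted p = 0.0525), WT 3 (-1.40, 0.0530), carcinoma 1 (-1.44, 0.0638), carcinoma 4 (-1.51, 0.0512) or carcinoma 5 (-1.11, 0.0696), with array medians aligned (-1.16, 0.0861), with array weights (-1.23, 0.0502) and without the 4 spike-bright arrays (-1.62, 0.229). In the last of these settings the difference was no smaller than in the main fit, and WT 3 and WT 6 alone stood for WT. The Gata4 signal had r = 0.42 with the spike-in signal over the 16 arrays and -0.01 within groups. Adjusted for the spike-in signal, the carcinoma difference was -1.49 ± 0.54 (limma adjusted p = 0.135). With the Gapdh ratio, r was -0.60 over the 16 arrays and -0.30 within groups. Adjusted for that ratio, the carcinoma difference was -0.88 ± 0.66 (limma adjusted p = 0.643), in a fit where carcinoma 4 alone lay within the WT range of the ratio.

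Gata6, which is expressed along the whole intestine and in its crypts, had 3 probe sets. On the brightest, WT signals ran from 210.8 to 527.4 (median 339.35), adenoma signals were 137.5, 260.1, 257, 375.1 and 188.7, and carcinoma signals were 245.5, 247.3, 213.2, 129.7 and 276.2. The log2 differences were -0.56 ± 0.32 in adenoma (adjusted p = 0.312) and -0.66 ± 0.32 in carcinoma (adjusted p = 0.217). The 2 dimmer probe sets had differences of the same sign, -0.55 and -0.90 in adenoma and -0.56 and -0.84 in carcinoma, none of which passed when each probe set was tested on its own. All 3 thus leaned below WT within the spread of the arrays, and the tumours overlapped WT on each. On the brightest, the differences were -0.28 ± 0.40 and -0.37 ± 0.41 after the spike-in adjustment and -1.26 ± 0.53 and -1.30 ± 0.50 after the Gapdh adjustment, none of which passed.

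**Figure D2:**
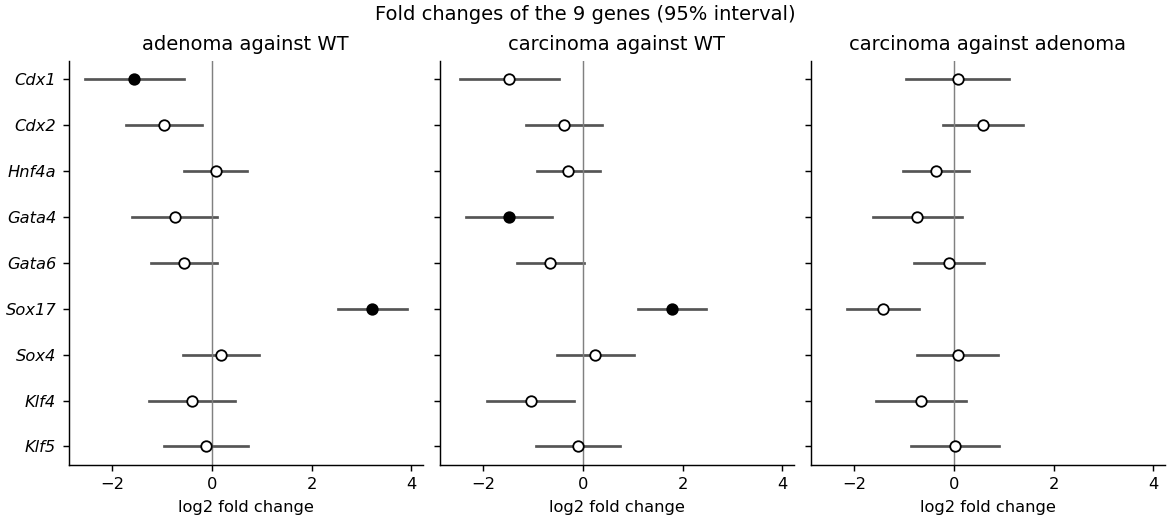
Fitted log2 fold change (x axis) of the 9 genes in the 3 comparisons, with 95% intervals from limma. Filled points passed at an adjusted p under 0.05; Sox17 and Cdx1 are filled in adenoma against WT, Sox17 and Gata4 in carcinoma against WT, and no gene in carcinoma against adenoma.

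Sox17, an HMG-box factor of endoderm and endothelium that restrains Wnt signalling, showed the only separation of groups among the 9 genes. On its brighter probe set, WT signals were between 69.3 and 263.8 with a median of 174.35. All 5 adenoma signals, 1211.6, 1224.7, 1745.7, 1593.1 and 1603.8, lay above every carcinoma signal, which were 469.3, 335.5, 563, 607.6 and 867.6, and every carcinoma signal lay above every WT signal. The order was therefore adenoma, then carcinoma, then WT, with no overlap between any of the groups. Groups that do not overlap were found for 1 of the 9 genes in each comparison, beside 5.79% of all genes in adenoma against WT, 6.28% in carcinoma against WT and 0.537% in carcinoma against adenoma.

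The log2 difference from WT was 3.22 ± 0.33 in adenoma (limma adjusted p = 3.32e-06) and 1.79 ± 0.33 in carcinoma (adjusted p = 0.00155). Carcinoma was lower than adenoma by a log2 difference of -1.43 ± 0.34, which did not pass over all genes (adjusted p = 0.327, unadjusted p = 0.000561), although it ranked 12 by p among 7455 genes. The adenoma call passed in 31 of 31 other settings, with log2 differences from 2.48 to 3.51. The carcinoma call passed in 29 of 31; it was lost after adjustment for the Gapdh ratio (1.86 ± 0.55, adjusted p = 0.127) and without the 4 spike-bright arrays (1.39 ± 0.36, adjusted p = 0.0581). The Sox17 signal had r = -0.61 with the spike-in signal and 0.73 with the Gapdh ratio over the 16 arrays. With group means removed, r was -0.03 and -0.05. Both controls differ between WT and tumours, so the within-group values cannot separate the group difference from them.

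The second, dimmer Sox17 probe set gave a part of this order. Its adenoma signals were 211.5, 157.9, 179.5, 176.6 and 218.2, and its carcinoma signals were 103.4, 9.5, 19.8, 40.6 and 67.4. Of the WT arrays, WT 1 was at 138.7 and the other 5 were below the floor. Tested on its own, this probe set was higher in adenoma (1.74 ± 0.31, adjusted p = 0.00138) and not in carcinoma (0.07 ± 0.31, adjusted p = 0.920), and its carcinoma to adenoma difference was -1.67 ± 0.32 (adjusted p = 0.0754). The probe sets thus differ on carcinoma against WT, where most signals of the dimmer one were under the floor, and share the separation of adenoma from the other groups. With a gene's probe sets averaged, carcinoma was 0.93 ± 0.23 above WT (adjusted p = 0.0163) and the drop from adenoma to carcinoma passed (-1.55 ± 0.24, adjusted p = 0.0197), as it did with array weights (-1.60 ± 0.29, adjusted p = 0.0185).

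Since endothelial cells also make Sox17, the endothelial markers are given beside it. Of 20 tested endothelial genes, 1 rose and 2 fell in adenoma, and 0 rose and 1 fell in carcinoma, with medians of -0.34 and -0.12. The shares of all genes were 4.02% higher and 4.25% lower in adenoma, and 4.16% and 4.90% in carcinoma. With array medians aligned, 1 and 4 of the 20 rose and none fell. The summed signal of 24 such genes ran from 4565 to 9069 in WT, from 5457 to 12235 in adenoma and from 5256 to 12828 in carcinoma, so the ranges overlapped. Of the 24 genes, 1 stayed at the floor throughout the 6 WT arrays, 4 throughout the 5 of adenoma and 3 throughout the 5 of carcinoma. The same count was not made over all genes. Median signals per array were 168.1 to 234.2 in WT, 144.8 to 195.25 in adenoma and 126.8 to 184.65 in carcinoma. A loss of endothelial genes can thus not be read from these counts.

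The endothelial gene that rose was Cdh5, the cadherin of endothelial junctions. Its signals were 99.6 to 369.6 in WT (median 219.4), 1639.3, 833.6, 889.9, 708.8 and 1014 in adenoma, and 338.9, 416.9, 385.4, 332.9 and 360.7 in carcinoma. Adenoma lay above all other arrays, as for Sox17 (log2 difference from WT 2.17 ± 0.32, adjusted p = 0.000237, passed in 31 of 31 other settings), while carcinoma overlapped WT (0.76 ± 0.32, adjusted p = 0.148).

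The other defining endothelial genes did not pass in adenoma. The differences were -0.55 ± 0.26 for the adhesion molecule Pecam1, 0.80 ± 0.38 for the VEGF receptor Kdr, and 0.79 ± 0.31 and -0.45 ± 0.42 for the angiopoietin receptor family members Tek and Tie1. Pecam1 signals were 231.9 to 388.3 in adenoma and 359.7 to 616.2 in WT. The selectin Sele and the lymphatic VEGF receptor Flt4 fell in adenoma (-1.15 and -1.06), calls that passed in 14 of 29 and 10 of 31 other settings, and the factor Tal1 fell in carcinoma (-1.13, 13 of 30). The part of endothelial RNA in the Sox17 signal was not tested.

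**Figure D3:**
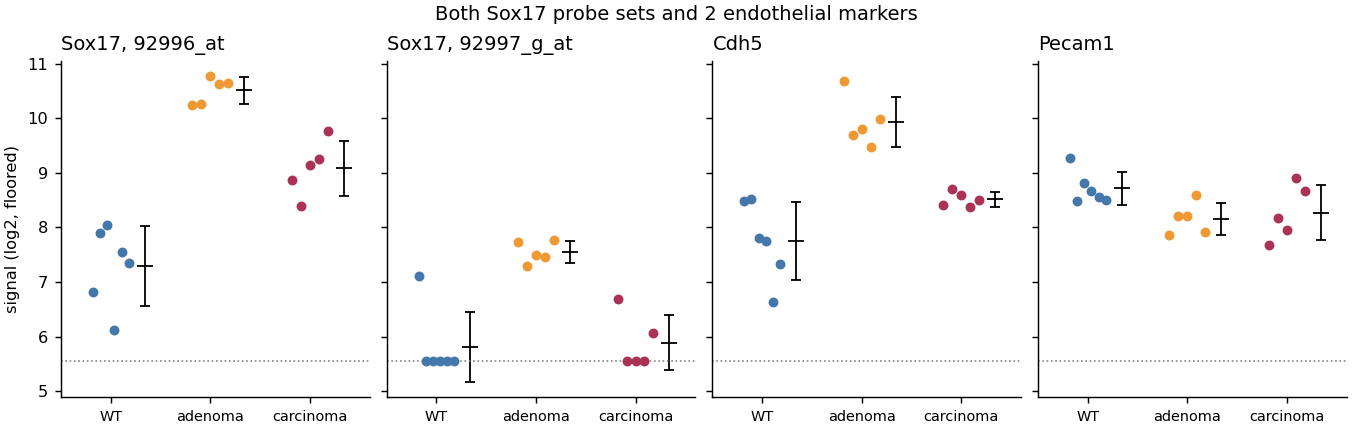
Signal on every array (y axis, log2 scale, floor dotted) of both Sox17 probe sets and of the endothelial genes Cdh5 and Pecam1, with group means ± SD. The 5 adenoma arrays stand above all others for both Sox17 probe sets and for Cdh5, while for Pecam1 the adenoma arrays lie between 231.9 and 388.3 and the WT arrays between 359.7 and 616.2.

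Sox4, a crypt factor of the same family, passed the test in no comparison. Its brighter probe set gave WT signals from 484.9 to 2230.3 (median 970.15), adenoma signals of 727.6, 1141.3, 1482.3, 1861.7 and 749.9, and carcinoma signals of 1020.2, 968.5, 804.9, 1318.8 and 2099.6. All tumour arrays lay within the WT range, and the log2 differences were 0.18 ± 0.37 and 0.25 ± 0.37 (adjusted p = 0.807 and 0.709). The 95% intervals, -0.59 to 0.95 in adenoma and -0.52 to 1.02 in carcinoma, hold for this fit alone. Sox4 followed the spike-in signal within groups (r = 0.70), and adjusted for it the differences were 0.99 ± 0.38 and 1.07 ± 0.38 (adjusted p = 0.154 and 0.129), beside -0.12 ± 0.65 and -0.018 ± 0.609 after adjustment for the Gapdh ratio.

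Klf4, which accompanies the exit of epithelial cells from division, gave WT signals from 1909.9 to 9455.5 with a median of 4077.35. The adenoma signals were 7049.5, 1983.6, 2719.5, 2170.4 and 3522.7, and those of carcinoma were 1970, 2832.8, 3291.4, 1710.8 and 948.4. The groups overlapped, with 2 carcinoma arrays below every WT array. The log2 differences of -0.40 ± 0.41 in adenoma (adjusted p = 0.589) and -1.05 ± 0.41 in carcinoma (adjusted p = 0.122) did not pass. Klf4 signal had r = -0.54 with the Gapdh ratio, and adjusted for it the differences were 0.56 ± 0.67 and -0.18 ± 0.63; adjusted for the spike-in signal they were -0.96 ± 0.51 and -1.62 ± 0.51 (adjusted p = 0.327 and 0.0796). A second Klf4 probe set was above the floor on 1 of 16 arrays and was not tested.

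Klf5, the factor of dividing crypt cells, had WT signals from 1784.7 to 8450.2 with a median of 2999.1. Adenoma signals were 1886, 5132, 2464.5, 4627.3 and 1499.5, and carcinoma signals 1826.7, 3016.6, 2353.5, 3231.3 and 4233.9. The differences were -0.13 ± 0.40 and -0.10 ± 0.40 (adjusted p = 0.883 and 0.902), with 95% intervals from -0.97 to 0.72 and from -0.95 to 0.74. The sign turned after the spike-in adjustment (0.67 ± 0.45 and 0.70 ± 0.45) and not after the Gapdh adjustment (-0.67 ± 0.70 and -0.60 ± 0.66).

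Some of the genes varied together from array to array, among them Sox4, Klf4 and Klf5, none of which passed between groups. Sox4 and Klf5 were correlated over the 16 arrays (Pearson r = 0.79 and Spearman rho = 0.81, permutation tests, adjusted p = 0.00972 and 0.00828 over the 36 pairs of the 9 genes). Sox4 and Klf4 were correlated inversely (r = -0.74 and rho = -0.79, adjusted permutation p = 0.0142 and 0.00828). Without the 2 arrays farthest from the median Sox4 signal, WT 5 and WT 6, r was 0.69 and -0.77, and with group means removed it was 0.82 and -0.79. Arrays with more Sox4 signal thus had more Klf5 and less Klf4 signal, inside the groups as well as across them. With group means removed, Cdx1 also varied with the same genes (r = 0.71 with Sox4, -0.79 with Klf4 and 0.70 with Klf5), while over the 16 arrays r was 0.39, -0.19 and 0.57, none of which passed.

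Klf4 and Klf5 themselves gave r = -0.60 (adjusted permutation p = 0.120) and rho = -0.65 (0.0742). Of the other 33 pairs, 1 passed by rho alone, Cdx1 with Gata6 (rho = 0.72, adjusted permutation p = 0.0228, r = 0.63, 0.109). The Sox4 and Klf5 correlation was between 0.58 and 0.83 over 23 other settings chosen after the data were seen, and that of Sox4 and Klf4 between -0.83 and -0.35. It depended on the Sox4 probe set: the second one had r = 0.24 with Klf5, -0.07 with Klf4 and 0.47 with the first. Within groups the spike-in signal followed Sox4 (r = 0.70) and Klf5 (0.61) and ran against Klf4 (-0.42); adjusted for it, the correlations were 0.75 and -0.83.

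**Figure D4:**
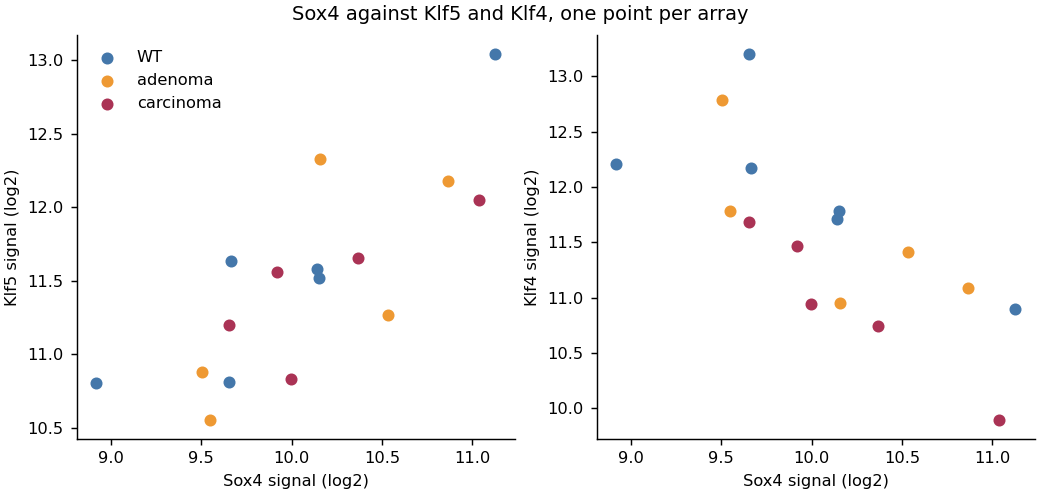
Signal of Klf5 (left, y axis) and Klf4 (right, y axis) against that of Sox4 (x axis), all on the log2 scale, with 1 point per array coloured by group. Klf5 rises with Sox4 (r = 0.79) and Klf4 falls with it (r = -0.74), and the 3 groups are mixed along both trends.

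The promoters of Sox4 and Klf4 are printed because these genes ran in opposite directions over the arrays, and so that their base composition and any letters of gut factor motifs can be seen. The windows are the 250 bases before the RefSeq start in GRCm38.p6, on the gene's strand, for Sox4 at chr13:28953700-28953949, minus strand, and for Klf4 at chr4:55532476-55532725, minus strand. Capitals mark the letters TTTAT (known from Cdx sites), GATAA (from Gata sites) and CAAAG (from Hnf4a sites), searched on both strands, so that their reverse complements are marked too, and matches of the first and second kind can share bases. Sox4 held 1 Cdx match and 1 Gata match, which overlap, and Klf4 held 1 Cdx match. Of 32851 promoter windows of this length, 37.3% held the Cdx letters, 22.6% the Gata letters and 48.6% the Hnf4a letters, so such matches are common. Entries were matched for 4 genes, of which those of Cdx2 and Hnf4a are not printed. No entry was matched for Sox17, Sox9, Gata4 and Klf5, and the promoters of Cdx1 and Gata6 were not used here.
Sox4: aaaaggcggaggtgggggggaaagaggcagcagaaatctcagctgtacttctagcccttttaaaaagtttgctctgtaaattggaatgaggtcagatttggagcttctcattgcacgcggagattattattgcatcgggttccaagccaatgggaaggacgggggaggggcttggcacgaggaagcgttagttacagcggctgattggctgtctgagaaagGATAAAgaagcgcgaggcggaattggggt
Klf4: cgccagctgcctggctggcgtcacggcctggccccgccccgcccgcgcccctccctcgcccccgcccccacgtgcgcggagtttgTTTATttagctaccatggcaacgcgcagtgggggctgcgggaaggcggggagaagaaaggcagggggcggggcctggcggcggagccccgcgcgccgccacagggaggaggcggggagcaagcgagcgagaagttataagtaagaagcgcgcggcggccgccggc

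Part of the enterocyte genes known as targets of Cdx2, Hnf4a or Gata4 fell in the tumours, and none rose. Of 34 tested, 8 fell and 0 rose in adenoma, and 13 fell and 0 rose in carcinoma, with median log2 differences of -0.66 and -1.52 beside -0.14 over all genes. Between carcinoma and adenoma 0 of 34 passed, with a median of -0.58. Falls were not particular to this list. Of 19 tested markers of goblet, Paneth, enteroendocrine and tuft cells, 8 fell and 3 rose in each tumour, with medians of -1.04 and -0.80. The summed signal of these markers was 109842 to 210182 in WT, 53502 to 66950 in adenoma and 45051 to 84172 in carcinoma. Among the 34 genes, Otc, Enpep, Mep1a, Dpp4, Dgat1, Fabp2, Slc5a1 and Tff3 were lower in both tumours. Lower in carcinoma also were Apoa1, Mep1b, Cyp3a11, Guca2b and Krt20. Tff3 is a goblet cell gene and was counted in the secretory list as well. The counts of falls among these 34 were 4 and 6 without the 4 spike-bright arrays and 1 and 2 after adjustment for the Gapdh ratio. Calls also shrank over all 7455 genes. Those lower went from 317 and 365 to 69 and 92 without these arrays, and to 17 and 42 with the Gapdh adjustment.

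Otc, a urea cycle enzyme of the small intestine, fell most. Its signals were 4811.2 to 9385 in WT (median 7928.9), 1082.9, 445.2, 759.1, 460.5 and 724.7 in adenoma, and 606, 190.8, 229.5, 175.6 and 180.1 in carcinoma. The tumours did not overlap WT, and the log2 differences were -3.47 ± 0.33 and -4.91 ± 0.33 (adjusted p = 1.75e-06 and 1.64e-08, passed in all 31 other settings). The brush border peptidase Enpep differed by -3.36 ± 0.62 and -4.78 ± 0.62, with signals of 2097.3 to 11237.4 in WT, 113.1 to 1721.6 in adenoma and 118.8 to 242.7 in carcinoma.

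Other brush border genes fell less. Mep1a, a meprin subunit, differed by -1.72 ± 0.33 and -2.30 ± 0.33, the peptidase Dpp4 by -1.36 ± 0.25 and -1.54 ± 0.25, and the sodium and glucose transporter Slc5a1 by -1.95 ± 0.45 and -2.52 ± 0.45. Fabp2, a fatty acid carrier of enterocytes, differed by -2.16 ± 0.63 (adjusted p = 0.0418) and -3.43 ± 0.63 (adjusted p = 0.00156), the first of which passed in 15 of 31 other settings.

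The promoters of Otc, Enpep, Mep1a and Dpp4 are shown because these genes fell in both tumours and are taken as targets of the factors described. The same letters are in capitals, in windows at chrX:10252055-10252304, plus strand; chr3:129332750-129332999, minus strand; chr17:43502774-43503023, minus strand; and chr2:62412232-62412481, minus strand. Otc held 2 Cdx and 2 Gata matches, Enpep held 1 Cdx, 1 Gata and 4 Hnf4a matches, Mep1a held 2 Gata and 3 Hnf4a matches, and Dpp4 held 1 Cdx, 1 Gata and 2 Hnf4a matches. All 3 sets of letters occurred in Enpep and Dpp4, and in 8.08% of all windows. Of the 8 genes lower in both tumours, 6 had an entry; Fabp2 held Cdx and Hnf4a letters, and Slc5a1 none of the 3. A match is a description of letters and does not show that a factor binds there.
Otc: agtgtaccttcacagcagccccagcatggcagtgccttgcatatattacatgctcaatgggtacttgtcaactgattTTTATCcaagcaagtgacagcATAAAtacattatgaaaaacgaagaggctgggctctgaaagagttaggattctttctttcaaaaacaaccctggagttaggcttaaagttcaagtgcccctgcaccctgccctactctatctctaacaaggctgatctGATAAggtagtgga
Enpep: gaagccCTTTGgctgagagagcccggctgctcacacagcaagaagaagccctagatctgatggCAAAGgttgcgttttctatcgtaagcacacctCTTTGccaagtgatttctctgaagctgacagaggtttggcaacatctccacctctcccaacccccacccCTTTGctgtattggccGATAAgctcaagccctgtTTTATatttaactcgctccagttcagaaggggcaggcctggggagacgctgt
Mep1a: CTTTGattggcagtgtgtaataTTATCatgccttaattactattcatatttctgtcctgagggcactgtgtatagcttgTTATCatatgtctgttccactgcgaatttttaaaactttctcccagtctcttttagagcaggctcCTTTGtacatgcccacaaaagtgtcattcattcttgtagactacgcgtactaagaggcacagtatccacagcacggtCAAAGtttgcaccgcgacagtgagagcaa
Dpp4: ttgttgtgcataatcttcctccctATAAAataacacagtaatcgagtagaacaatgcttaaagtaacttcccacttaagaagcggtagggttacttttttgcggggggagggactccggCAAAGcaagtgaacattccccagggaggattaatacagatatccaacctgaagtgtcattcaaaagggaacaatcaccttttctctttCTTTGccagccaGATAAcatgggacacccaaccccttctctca

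Among other transcription factors of gut epithelium more fell than rose. Of 39 tested, 1 rose and 6 fell in adenoma, and 1 rose and 8 fell in carcinoma, with medians of -0.25 and -0.28. The shares of all genes were 4.02% higher and 4.25% lower in adenoma, and 4.16% and 4.90% in carcinoma. The factors that fell were Vdr, Nr5a2, Ppara, Nr1h4, Nr2f1 and Gfi1 in both tumours and Rxra and Pax6 in carcinoma. Several of these calls were unstable: Nr2f1 in adenoma passed in 8 of 31 other settings, Gfi1 in 9 of 31 in adenoma and 20 of 31 in carcinoma, Rxra in 14 of 31 and Pax6 in 7 of 29. Without the 4 spike-bright arrays 2 and 3 of the 39 fell, with array medians aligned 3 and 4 fell while 3 and 6 rose, and adjusted for the Gapdh ratio 1 and 2 fell. Among all genes, 69 and 92, 148 and 209, and 17 and 42 fell in these settings, in that order. Without carcinoma 1, 4 or 5 the falls among the 39 numbered 5, 4 and 5 in carcinoma.

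Vdr, the vitamin D receptor, showed the largest of these falls. Its signals were 469.8 to 1561.9 in WT (median 716.45), 131.4, 85.3, 187, 125.3 and 148.4 in adenoma, and 79.4, 147.7, 25, 135.5 and 187.1 in carcinoma, without overlap with WT. The log2 differences were -2.64 ± 0.37 and -2.93 ± 0.37 (adjusted p = 0.000142 and 3.88e-05), and both passed in all 31 other settings. Nr5a2, a receptor of crypt and gland cells that drives local steroid synthesis, differed by -1.61 ± 0.24 and -1.93 ± 0.24 (passed in 30 and 31 of 31). Ppara, the receptor for fatty acids, differed by -1.53 ± 0.29 and -1.83 ± 0.29, and Nr1h4, the bile acid receptor of the ileum, by -1.26 ± 0.32 and -1.17 ± 0.32.

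Foxa1, a forkhead factor of endoderm, was the one that rose. Its signals were 253 to 572.7 in WT (median 345.85), 1047.9, 1370.4, 896.9, 1056.8 and 1221.8 in adenoma, and 1076.1, 1238.2, 1359.1, 1219.6 and 1031.9 in carcinoma. Every tumour array lay above every WT array, and the log2 differences were 1.54 ± 0.24 and 1.63 ± 0.24 (adjusted p = 0.000472 and 0.000231). Both calls were lost in 1 of 31 other settings, adjustment for the Gapdh ratio (adjusted p = 0.320 and 0.144).

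Among 22 tested relatives of the 10 genes in the Hnf4, Gata, Sox and Klf families, 1 fell and 0 rose in each tumour, with medians of -0.27 and -0.42. No relative in the Cdx family was tested. This is close to the share of all genes that fell, 4.25% in adenoma and 4.90% in carcinoma. The 1 relative that fell was Klf12, a repressor of the Klf family, with differences of -1.59 ± 0.33 and -1.62 ± 0.33 (limma adjusted p = 0.00511 and 0.00397). WT signals of Klf12 lay between 117.7 and 300.5, and 3 of 5 adenoma and 2 of 5 carcinoma arrays were below the floor, so the fold is understated. Both calls were lost without the 4 spike-bright arrays and after adjustment for the Gapdh ratio.

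**Figure D5:**
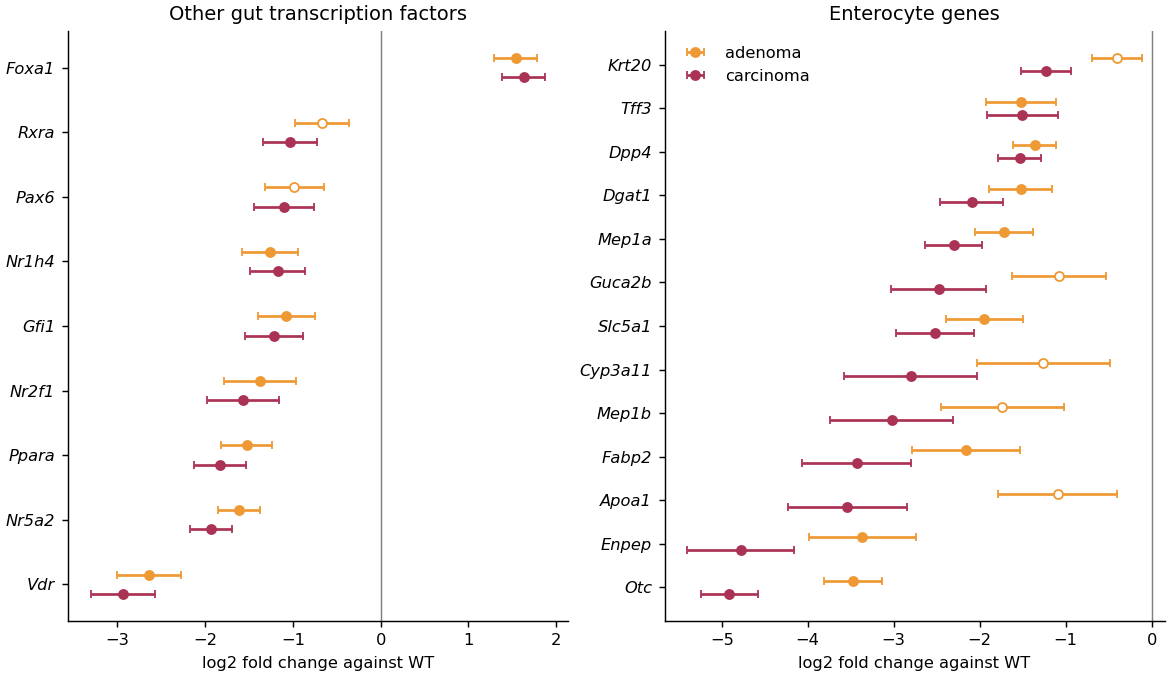
Log2 fold change against WT (x axis, ± SE) of the other gut transcription factors (left) and of the enterocyte genes (right) that passed in at least 1 tumour; filled points passed at an adjusted p under 0.05. Foxa1 alone lies above 0, and Otc and Enpep have the lowest values, at -4.91 and -4.78 in carcinoma.

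Of 17 tested genes that mark the ileum or the proximal small intestine, 4 fell and 0 rose in each tumour, with medians of -0.57 and -0.80. The share of all genes that fell was 4.25% in adenoma and 4.90% in carcinoma. Slc51a, a subunit of the bile acid exporter of ileal enterocytes, differed by -2.03 ± 0.31 and -3.05 ± 0.31, and Gip, the hormone of proximal endocrine cells, by -1.91 ± 0.44 and -1.73 ± 0.44. The others were Nr1h4 in both tumours, Ghrl, the hormone ghrelin, in adenoma (-1.29 ± 0.38) and Adh1, an alcohol dehydrogenase, in carcinoma (-2.81 ± 0.45). Gip and Ghrl were counted in the secretory list as well, and Nr1h4 among the other transcription factors, so the counts of these lists are not independent. Without the 4 spike-bright arrays 2 and 3 of the 17 fell, after the spike-in adjustment 2 and 4, and after the Gapdh adjustment 0 and 1. Lower calls among all genes numbered 69 and 92, 184 and 191, and 17 and 42 in these settings. Gip was lost in both tumours in each of these settings, with log2 differences as small as -0.95 in adenoma and -0.90 in carcinoma over all settings. Ghrl passed in 11 of 31 other settings, and Nr1h4 in 27 of 31 in adenoma and 22 of 31 in carcinoma.

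Of 30 tested genes known as targets of the Klf and Sox factors, 2 rose and 1 fell in adenoma, and 4 rose and 0 fell in carcinoma, with medians of 0.21 and 0.26. Among all genes 4.02% rose and 4.25% fell in adenoma, and 4.16% and 4.90% in carcinoma, so the adenoma counts lie near these shares. The surface glycoprotein Cd24a rose by 2.41 ± 0.29 and 2.48 ± 0.29, and the matrix protease Mmp7 by 2.46 ± 0.39 and 2.73 ± 0.39. These counts depend on the scaling, since 7 and 9 rose with array medians aligned, which moves the median of all genes to 0.12 and 0.15, and 3 or 4 rose in adenoma without WT 5 or WT 6. Without the 4 spike-bright arrays 2 rose in each tumour, where the higher calls among all genes went from 300 and 310 to 127 and 125. The polyamine enzyme Odc1 and the laminin receptor chain Itga6 rose in carcinoma (0.96 ± 0.21 and 0.998 ± 0.293), and the cyclin Ccnd2 fell in adenoma (-1.54 ± 0.42). These calls passed in 28, 18 and 24 of 31 other settings, in that order.

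Markers of gastric epithelium were listed because Cdx2 is known to keep stomach genes off. Of 13 tested, 4 rose in adenoma and 3 in carcinoma, and 0 fell, while the list's median was 0.18 in adenoma and -0.46 in carcinoma. The share of all genes that rose was 4.02% in adenoma and 4.16% in carcinoma. The list's summed signal over 16 genes was 3546 to 8636 in WT, 9917 to 16304 in adenoma and 6964 to 17449 in carcinoma. Ctse, a gastric aspartic protease, had log2 differences of 6.26 ± 0.33 and 5.88 ± 0.33 (passed in all 31 other settings, with 2.46 and 2.15 where its probe sets were averaged). Tff2 (3.39 ± 0.85 and 3.36 ± 0.85), Krt7 (1.403 and 1.368) and, in adenoma, Anxa10 (1.88) also passed. The other 9 did not pass in adenoma. Of these, Barx1, Atp4a, Gast, Tff1, Capn9 and Chia1 lay below WT (-0.93, -0.84, -0.69, -0.51, -0.49 and -0.37). Muc1, Psca and Cblif lay above it (0.70, 0.44 and 0.18). Without the 4 spike-bright arrays, or after the Gapdh adjustment, 1 rose in each tumour, and Tff2, Krt7 and Anxa10 were lost with that adjustment. Higher calls among all genes numbered 127 and 125 in the first setting and 53 and 58 in the second. The count of gastric markers that rose in adenoma was 2 without WT 1, WT 3 or adenoma 3, and 1 without adenoma 5.

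For each gene that passed, the 3 genes with the most similar pattern over the 16 arrays are given as a description. For Cdx1 they were Myo1d, Irf8 and Hint2 (r = 0.92, 0.91 and 0.90, and 0.86, 0.86 and 0.83 with group means removed). For Gata4 they were Adcy9, Entpd2 and Krt10 (r = 0.86, 0.85 and 0.84, and 0.82, 0.71 and 0.75). For Sox17 they were Mcpt2, Minpp1 and Adam8 (r = 0.92, 0.91 and 0.91), and with group means removed these fell to 0.29, 0.31 and 0.38. With group means removed, r thus stayed high for Cdx1 and Gata4 and fell for Sox17. The matches were picked by r over these same arrays, and Sox17 differed most between groups. This contrast can therefore come from the choice and is not a result about the genes.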

How the data were processed

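Epithelial cells of mouse ileum were captured by laser, with RNA amplification before hybridisation to MG_U74Av2 arrays, per the labels' protocols. The authors deposited 1 intensity per probe set and array on a linear scale for 12488 probe sets; the software behind these intensities is not stated in the labels. The arrays share a trimmed mean, were taken as scaled by the authors and were not normalized again. The number of arrays limits the precision.

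Values under the 25th percentile (46.9) were raised to it, and log2 was taken. Symbols came from the platform annotation (10833 probe sets with 1 symbol, 396 with several, 1193 not listed), updated through a mouse gene table of GRCm38.p6 used for names. The brightest probe set stood for a gene, and a gene needed 5 of 16 arrays above the floor to be tested. A single limma 3.58.1 model (R 4.3.3) held all 3 groups (two-sided, Benjamini-Hochberg over 7455 genes, threshold 0.05); the fit was tested on simulated data. Correlations and control measures used permutation tests in scipy 1.17.1. Promoters came from RefSeq tables.

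Members and lists were chosen with earlier results of these data known, and the alternatives are those in the closing section. All genes on the list were to be named; of related lists, those that passed, up to 8 by smallest p, and defining markers; and the 3 genes most like each gene called. For enterocyte genes and other transcription factors all that passed are named, which goes past 8 and was chosen after their values were seen. From the other lists, markers of smooth muscle and fibroblasts (2 of 23 rose and 3 fell in adenoma, 3 and 3 in carcinoma), immune cells (1 and 3 of 18, then 1 and 1), secretory cells (3 and 8 of 19, then 3 and 8) and epithelium (1 and 0 of 14, then 1 and 1) were counted the same way.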

Additional observations from a re-analysis of the deposited data

Results flagged for a closer look

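Among 39 groups of arrays of single probe sets, 6 had 1 array apart from the others by its gap over the range. Chance alone gives about 1 in 20 groups, a rate that does not apply where the other arrays were raised to the same floor, as for Cdx2, Hnf4a and the dimmer Sox17 and Klf4 probe sets, so those 4 are given as values only. Cdx2 in adenoma 4 was at 61.5, with the next adenoma array at 50.7 and the others below the floor, so it stood apart only after low values were raised. Hnf4a in adenoma 2 was at 164.7, with the next at 48.2. Klf5 in WT 5 was at 8450.2, with the next at 3173.2; the same array was the highest WT array for Cdx1 and for the brighter Sox4 probe set and the lowest for Klf4.

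In dimmer probe sets, one Gata6 probe set was at 22.9 in carcinoma 1, where the other carcinoma arrays were at 148.9 or more. The dimmer Sox17 probe set was at 138.7 in WT 1, where the other WT arrays were below the floor, while the brighter Sox17 probe set in WT 1 (112.4) lay inside the WT range. The dimmer Klf4 probe set was at 91.6 in WT 2, with the next at 31.8, below the floor.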

How the results depend on the processing

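Each gene was refitted under 31 alternatives (29 for Hnf4a); applying them to the other gene lists and to the correlations was chosen after seeing the data. Sox17 in adenoma passed in all 31. In adenoma 1 gene, Sox17, passed with quantile normalization, array medians aligned, no filter, the mean of probe sets, each probe set on its own, only the 2 groups, the spike-in adjustment, or without the spike-bright arrays. In carcinoma 1 passed with medians aligned (Sox17), with the Gapdh adjustment (Cdx1) or with the spike-in adjustment (Sox17), and 0 without the spike-bright arrays. Carcinoma against adenoma gave 1 (Sox17) with the mean of probe sets or array weights.

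Signs turned in comparisons that had not passed. Cdx2 in carcinoma was 0.023 (quantile) and 0.13 (spike-in adjustment). Klf5 was 0.17 and 0.22 in adenoma and carcinoma with medians aligned, 0.67 and 0.70 with the spike-in adjustment, and 0.22 and 0.24 without the spike-bright arrays. Hnf4a in adenoma was -0.19 with the floor at the 10th percentile and -0.13 with the Gapdh adjustment, and in carcinoma 0.031 with the spike-in adjustment. Sox4 with the Gapdh adjustment was -0.12 and -0.018 in the tumours, and -0.074 between them with the mean of probe sets. Klf4 in adenoma was 0.56 with the Gapdh adjustment, and Gata6 between tumours 0.041 with array weights.

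Leaving out each array in turn gave 1 to 3 genes in adenoma and 1 to 3 in carcinoma. It moved Hnf4a in adenoma from -0.29 to 0.16, Sox4 in adenoma from -0.024 to 0.42, and Klf5 from -0.35 to 0.17 in adenoma and -0.26 to 0.19 in carcinoma. Between tumours the ranges were -0.24 to 0.44 (Cdx1), -0.28 to 0.085 (Gata6), -0.14 to 0.26 (Sox4) and -0.20 to 0.24 (Klf5). With the replicate block, 2, 3 and 0 genes passed and Sox4 in adenoma was -0.024. Same-numbered arrays correlated at -0.27 to 0.40 with group means removed. Pairs of arrays with different numbers were not compared, so these values cannot show whether the numbers pair the samples. WT 6 has no partner. The causes were not tested.

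Scaling moved the median of all genes from -0.14 to 0.12 in adenoma and 0.15 in carcinoma with medians aligned, and to -0.02 and -0.01 with quantile normalization. The share of calls that were higher went from 48.6% to 75.8% and 62.6% in adenoma and from 45.9% to 73.7% and 58.8% in carcinoma. Cdx2, Hnf4a and the second Sox17 and Klf4 probe sets lie near the floor, which limits what their values can show.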
